A study of Mus musculus with 2 samples.

Results

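The genes described here encode RNA polymerase II, the general factors that place it at promoters, the Mediator complex that relays signals to it, and the factors that pause, release and speed it along genes. Members were taken by gene symbol, and only transcripts annotated as protein-coding in GENCODE M21 were kept. This gave 259 transcripts of 104 genes, out of 49490 protein-coding transcripts of 21574 genes and 121429 transcripts of any kind in the table. Each gene was represented by its coding transcript with the highest exon value averaged over the libraries. All 104 genes had a mean exon value above 1, the minimum used, and 100 of them had an exon and an intron value above 0 in both libraries.

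Wild-type embryonic stem cells of the mouse line DTCM23/49 XY gave the data. They were depleted of feeder cells and grown in serum with leukemia inhibitory factor, which keeps such cells pluripotent. The cells received 200 µM 4-thiouridine (4sU), a uridine analogue that is built into new RNA, for 10 min. RNA that carried 4sU was then pulled out with biotin and streptavidin beads, and what stayed behind was collected as unlabeled, preexisting RNA. Both pools came from replicate 1, and each is 1 library, so no value below has a replicate error and no test could be made. One label calls the unlabeled library total RNA and another calls it preexisting RNA. It was used as unlabeled RNA, as the study did. The libraries hold 1 exon and, for most transcripts, 1 intron value per transcript, in relative abundance per base of transcript. The values are called TPM but add up, in each library, to 10 times what TPM would. Below, TPM is this deposited unit. Read depth cannot be recovered from it. In bulk RNA, fewer cells of a type and less RNA per cell cannot be told apart.

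Markers of pluripotent stem cells were present in both libraries. Pou5f1, which encodes the pluripotency factor Oct4, stood at 161 TPM in labeled and 256 TPM in unlabeled RNA, and all 9 markers of that list stood at 65.9 TPM or more. The 12 markers of neuroectoderm, mesoderm, endoderm, trophoblast and fibroblasts stood at 14.5 TPM or less, the highest being Thy1, and Gata6, Sox17 and Elf5 were listed at 0 in both libraries.

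RNA polymerase II transcribes all protein-coding genes. General transcription factors (TFIIA, TFIIB, TFIID, TFIIE, TFIIF and TFIIH) assemble with it at the promoter, and Mediator bridges it to activators bound at enhancers. In stem cells the polymerase often pauses soon after initiation under the negative elongation factor NELF and the factor DSIF, and the kinase P-TEFb releases it. P-TEFb is itself held inactive by Hexim1 on the 7SK RNA, which Larp7 protects.

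To show where subunit genes that differ in the data below start, the promoters of Polr2f, Polr2h and Polr2l, which of the subunits with an entry had the highest labeled relative to unlabeled exon values, are set beside those of the large subunits Polr2a and Polr2b, which had the lowest. Polr2k, Polr2d and Polr2g had no entry. Each runs from 250 bases before to 50 bases after the RefSeq start on GRCm38.p6, 5′ to 3′ on the gene's strand. Capitals mark matches, on either strand, to TATAAA (the TATA box), CCAAT (bound by NF-Y), GGGCGG (the GC box bound by Sp1), CCGGAAG (a core bound by ETS factors) or AAGATGG (the core of YY1 sites). Polr2f lies at chr15:79141075-79141374 (plus strand), Polr2h at chr16:20717576-20717875 (plus), Polr2l at chr7:141475104-141475403 (minus), Polr2a at chr11:69758584-69758883 (minus) and Polr2b at chr5:77310234-77310533 (plus).
Polr2f: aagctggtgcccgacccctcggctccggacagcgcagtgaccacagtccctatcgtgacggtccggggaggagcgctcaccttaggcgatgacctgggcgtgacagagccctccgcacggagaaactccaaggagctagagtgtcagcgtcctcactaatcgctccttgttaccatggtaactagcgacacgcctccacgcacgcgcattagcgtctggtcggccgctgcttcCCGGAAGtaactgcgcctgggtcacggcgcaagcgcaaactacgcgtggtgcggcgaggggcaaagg
Polr2h: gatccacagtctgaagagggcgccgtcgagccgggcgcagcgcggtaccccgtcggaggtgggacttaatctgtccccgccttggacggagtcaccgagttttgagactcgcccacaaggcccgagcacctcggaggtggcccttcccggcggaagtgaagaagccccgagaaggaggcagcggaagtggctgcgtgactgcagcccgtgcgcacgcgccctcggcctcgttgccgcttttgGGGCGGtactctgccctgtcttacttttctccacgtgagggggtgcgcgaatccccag
Polr2l: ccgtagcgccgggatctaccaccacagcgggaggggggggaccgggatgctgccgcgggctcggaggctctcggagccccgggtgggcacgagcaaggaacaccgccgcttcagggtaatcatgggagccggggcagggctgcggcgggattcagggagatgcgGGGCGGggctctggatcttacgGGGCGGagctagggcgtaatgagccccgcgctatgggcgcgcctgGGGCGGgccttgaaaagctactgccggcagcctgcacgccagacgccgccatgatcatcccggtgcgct
Polr2a: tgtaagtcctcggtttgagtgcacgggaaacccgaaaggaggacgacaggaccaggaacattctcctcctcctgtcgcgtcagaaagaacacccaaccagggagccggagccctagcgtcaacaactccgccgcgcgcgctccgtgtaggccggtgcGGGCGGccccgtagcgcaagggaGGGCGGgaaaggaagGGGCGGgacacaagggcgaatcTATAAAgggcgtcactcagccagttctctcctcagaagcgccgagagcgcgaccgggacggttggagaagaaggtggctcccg
Polr2b: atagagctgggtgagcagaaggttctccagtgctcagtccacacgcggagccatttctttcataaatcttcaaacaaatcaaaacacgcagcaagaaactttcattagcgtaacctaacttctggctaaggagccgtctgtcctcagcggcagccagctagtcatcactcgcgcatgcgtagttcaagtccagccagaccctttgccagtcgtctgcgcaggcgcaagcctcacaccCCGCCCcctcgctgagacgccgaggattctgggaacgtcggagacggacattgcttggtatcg
The RefSeq table held 1 promoter each for 91 of the 104 members, including 10 of the 13 polymerase subunits, and its start lay within 100 bases of the start of the transcript used here in 68. For Polr2a and Polr2b the distance was 410 and 337 bases. GGGCGG was found in 72.5% of the 91 member windows and in 35.7% of all 32851 windows, which include noncoding genes. CCGGAAG was found in 29.7% against 8.86%, and AAGATGG in 15.4% against 6.34%. CCAAT (34.1% against 37.4%) and TATAAA (13.2% against 13.6%) were held by about the same share of members as of all windows. Among the windows of the 10 polymerase subunits, 7 held GGGCGG, 3 held CCGGAAG and none held AAGATGG. No motif here was read as a site.

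To ask which of these mRNAs were relatively abundant among newly made RNA, the log2 ratio of the labeled to the unlabeled exon value was computed for each gene and centred on the median of all 13688 protein-coding genes above the same minimum. That median was -0.31 before centring, so a centred value of 0 means a labeled value 1.24-fold below the unlabeled one. A gene at least 2-fold above or below the median was counted as such. The members as a whole lay where other genes lay: their median was 0.02, with 53 above and 51 below the all-gene median. Of the 104 members, 23 were at least 2-fold above, against 22.1% of all genes, and 16 were at least 2-fold below, against 15.4% of all genes. Among 3962 coding genes in the range between the members' quartiles of mean exon value, the median was -0.26, with 12.5% at least 2-fold above and 16.2% at least 2-fold below. The members differed much among themselves, from -1.90 (Gtf2i) to 2.99 (Polr2k).

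**Figure D1:**
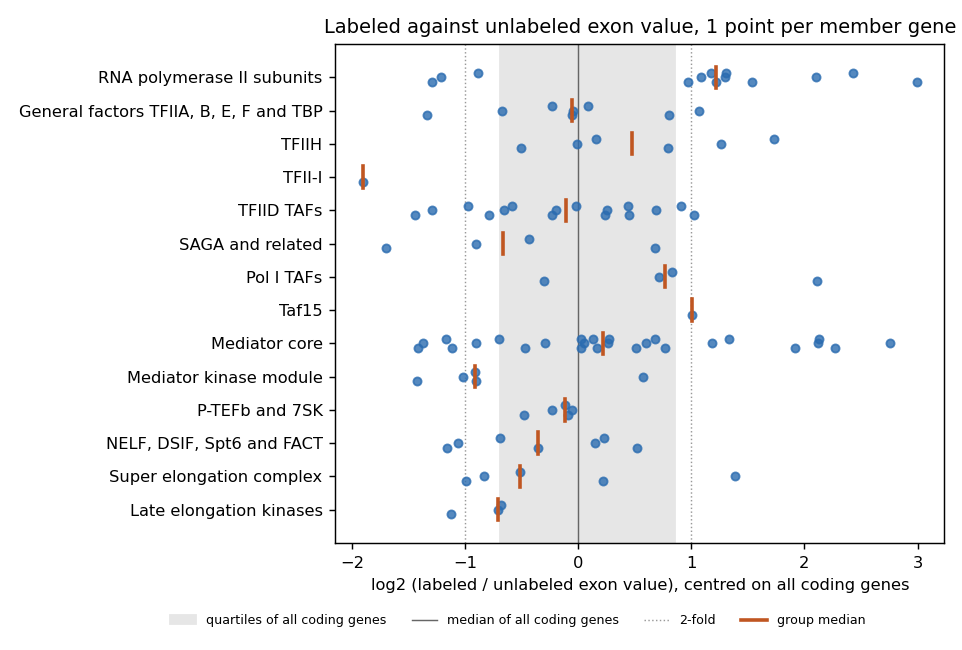
Log2 ratio of labeled to unlabeled exon value of each member gene (horizontal axis, centred on the median of all coding genes), by role, with the group medians as bars, the quartiles of all coding genes shaded and dotted lines at 2-fold. The subunits of RNA polymerase II lie in 2 clumps, 10 from 0.97 to 2.99 and 3 from -1.29 to -0.88.

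The polymerase subunits showed the widest split. The 3 genes below the median were the large catalytic subunits Polr2a and Polr2b and the associated protein Polr2m. Polr2a, the largest subunit, whose tail of repeats is phosphorylated during transcription (ENSMUSG00000005198, chr11:69734410-69758223), stood at 148 TPM in labeled and 446 TPM in unlabeled RNA, a centred log2 of -1.29. Polr2b, which forms the active site with it, stood at 151 and 432 TPM, or -1.21. Polr2m, which binds the polymerase and makes it depend on Mediator, stood at 243 and 553 TPM, or -0.88.

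The other 10 subunits, Polr2c to Polr2l, all had a higher exon value in labeled than in unlabeled RNA. Their centred log2 ran from 0.97 (Polr2i) to 2.99 (Polr2k) with a median of 1.30, and 9 of 10 were at least 2-fold above, against 22.1% of all genes. Without centring they ran from 0.67 to 2.69, and 4 of 10 had a labeled value at least 2 times the unlabeled one. The share of all genes past that limit is not given. With the exon values of all coding transcripts summed per gene, the centred values ran from 0.89 to 2.96. In unlabeled RNA they were the scarcer subunits, at 20.1 to 104 TPM, while in labeled RNA they stood at 47.1 to 279 TPM, a range that includes the values of Polr2a and Polr2b.

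Some of the small subunits are shared by RNA polymerases I, II and III, and these included the highest ratios. Polr2k, the smallest of them (ENSMUSG00000045996, chr15:36174010-36177007), stood at 279 TPM in labeled and 43.3 TPM in unlabeled RNA. Polr2f stood at 160 and 36.8 TPM, or 2.43. Polr2h stood at 195 and 55.8 TPM, or 2.11. These 3 were more than 4-fold above the all-gene median, and both coding transcripts of Polr2k lay close together, at 2.99 and 3.04. Polr2l (47.1 and 20.1 TPM, 1.53) and Polr2e (197 and 104 TPM, 1.22) completed the shared set of 5, whose median was 2.11. The 5 small subunits that belong to polymerase II alone, Polr2c, Polr2d, Polr2g, Polr2i and Polr2j, lay closer together, from 0.97 to 1.30. Polr2g, which with Polr2d forms the stalk, stood at 203 TPM in labeled and 102 TPM in unlabeled RNA.

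**Figure D2:**
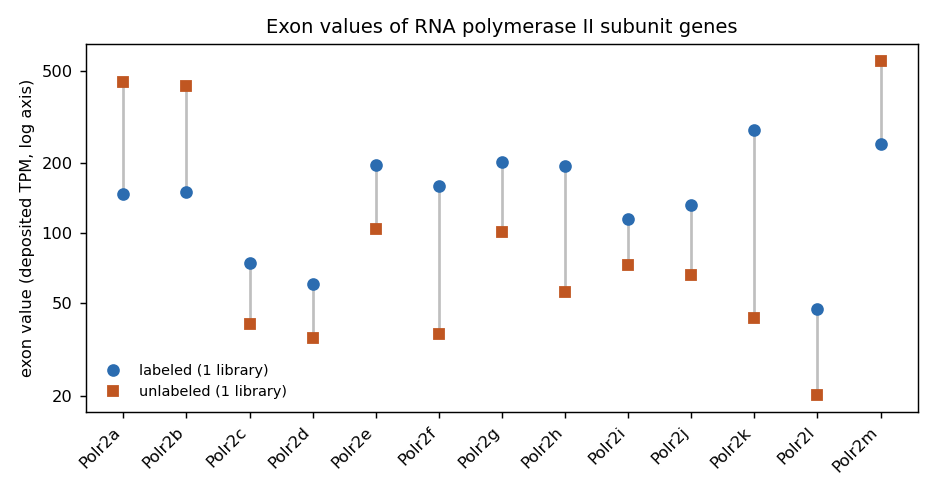
Exon value of each RNA polymerase II subunit gene in the labeled and the unlabeled library (vertical axis, deposited TPM, log scale; 1 library each, lines join the 2 values of a gene). For Polr2a, Polr2b and Polr2m the unlabeled value is the higher one, and for the other 10 the labeled value is.

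The small subunits also have short mRNAs, and transcript length moved with the ratio over all genes. By deciles of exon length, the median centred log2 of all coding genes was between 0.46 and 0.65 up to 1524 bases and -0.49 from 5480 bases. Over the 100 members with all values, Spearman's rho between exon length and the centred ratio was -0.53, and with the number of exons it was -0.60, against -0.30 and -0.23 over 12411 coding genes. These are correlations across genes of 1 pair of libraries, and genes are not independent replicates. The exons of Polr2c to Polr2l added up to 452 to 1650 bases, and those of Polr2a to 5799 bases. Among all coding genes, 37.1% of those in the shortest length decile and 24.9% of those in the fourth were at least 2-fold above. Set against genes of the same length decile, all 10 small subunits remained above the median, by 0.43 (Polr2d) to 2.53 (Polr2k). Of all genes, 50% are above that median. Of the 10 subunits, 4 were at least 2-fold above it, a count for which the share of all genes is not given. Polr2a (-0.80), Polr2b (-0.85) and Polr2m (-1.01) remained below the median of their length decile. Over the 104 members, 47 were above the median of their length decile. The part of length in the other values was not tested.

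**Figure D3:**
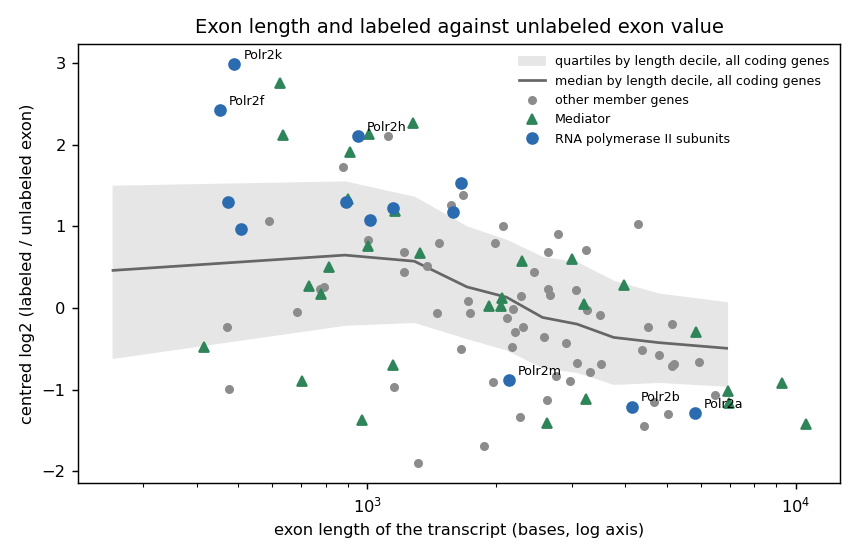
Centred log2 ratio of labeled to unlabeled exon value (vertical axis) against the exon length of the transcript (horizontal axis, log scale) for member genes, with the median and quartiles of all coding genes by length decile. Polr2c, Polr2f, Polr2h, Polr2k, Polr2l and several short Mediator subunits lie above the quartiles of their length decile, the other 5 small polymerase subunits lie within them, and Polr2a and Polr2b lie below them at the right.

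Among the general factors the values lay nearer to the median. Tbp, the TATA-binding protein, stood at 202 TPM in labeled and 258 TPM in unlabeled RNA, a centred log2 of -0.05. Gtf2b, the single-chain factor TFIIB, was at 57.9 and 74.3 TPM, or -0.06. Gtf2f1, the large TFIIF subunit, was at 176 and 204 TPM, or 0.09. The subunits of TFIIA lay apart, with the large precursor Gtf2a1 at -1.34 (74.5 and 233 TPM) and the small subunit Gtf2a2 at 1.07 (183 and 108 TPM). Gtf2i, which encodes TFII-I, a factor of initiator elements and of signaling, had the lowest ratio by the transcript that stands for it, at 35.9 TPM in labeled and 166 TPM in unlabeled RNA (-1.90). That transcript holds 10.5% of the gene's exon value. With the coding transcripts of each gene summed, Gtf2i was at -1.41, and Taf6l (-1.68), Taf4 (-1.49), Gtf2a1 (-1.47), Med13 (-1.47) and Med25 (-1.46) were lower. All 15 of its coding transcripts with a mean of at least 10 TPM were below the all-gene median, from -2.14 to -0.86.

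The 6 member genes of TFIIH, a complex that opens the promoter and phosphorylates the polymerase, had a median of 0.48. Its subunits outside the member list all lay lower than that, with Ercc2 at -0.60, Ercc3 at -0.37, Ccnh at 0.05 and Mnat1 at 0.36. The highest was Gtf2h5, a small stabilizing subunit, at 101 and 37.7 TPM (1.73), and the kinase Cdk7 was at 40.2 and 28.7 TPM (0.79). The core subunit Gtf2h1 was at 124 and 154 TPM (-0.01). The 16 TAFs of TFIID, which recognize promoters together with Tbp, had a median of -0.11, and this sign turned when the centre was taken from genes in the members' expression range. Only Taf10 was at least 2-fold above (1.02), and Taf4 (-1.44) and Taf2 (-1.30) were at least 2-fold below. Taf1, the largest TFIID subunit, was at 74.5 and 145 TPM (-0.66), and Taf3, which reads methylated histone H3, was at 73.4 and 136 TPM (-0.58). The symbols Taf1a to Taf1d belong to the factor SL1 of polymerase I, and of these Taf1d was at 0.83, Taf1c at 0.71 and Taf1b at -0.30. Taf1d, at 685 and 476 TPM, had the highest labeled exon value of the transcripts that stand for the members. With coding transcripts summed, Tbp was higher. Taf1a was at 2.11 with its 2-exon transcript, while its transcripts of 13 and 9 exons were at 0.60 and 0.57 and the sum of all gave 1.05. Taf15, an RNA-binding protein of the FET family, was at 212 and 130 TPM (1.00).

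The 26 core subunits of Mediator had a median of 0.22, which turned to below 0 without centring, with 7 at least 2-fold above (26.9%, against 22.1% of all genes) and 4 at least 2-fold below (15.4%, the same share as of all genes). The 7 were Med18, Med29, Med30, Med28, Med10, Med11 and Med31, at 1.18 to 2.76, all small subunits. Med29 was at 28.5 TPM in labeled and 7.27 TPM in unlabeled RNA (2.27), and Med30 was at 57.0 and 16.1 TPM (2.13). Med18, a subunit of the head module, reached 2.76 with its 2-exon transcript (56.5 and 10.3 TPM), while its 3-exon transcript was at 13.1 and 20.5 TPM, or -0.34. The value of Med18 therefore depends on how reads were divided between its transcripts, and the sum of both gave 1.43. The 4 at the low end were Med25, Med22, Med14 and Med15. Med14, the scaffold that joins the modules, was at 71.2 and 198 TPM (-1.17), and Med25, which binds activators, was at 9.07 and 29.9 TPM (-1.42).

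Med1, the subunit bound by nuclear receptors, was at 167 and 252 TPM (-0.29), and Med23, which the ERK-regulated factor Elk1 binds, was at 59.1 and 136 TPM (-0.90). Med26, which hands the polymerase to elongation factors, was at 25.7 and 20.96 TPM (0.60). Among the 30 genes named Med, the 15 with the shorter exons, up to 1281 bases, held all 7 genes at least 2-fold above and 1 of 6 at least 2-fold below. The 5 member genes of the kinase module, which docks on core Mediator and can block the polymerase, had a median of -0.92 (-0.52 against genes of the same length). Med13 was at 92.2 and 305 TPM (-1.42), Med12 at 19.8 and 49.6 TPM (-1.02) and the kinase Cdk8 at 103 and 238 TPM (-0.90). Of these 5 genes, only Med12l, the paralog of Med12, was above the median (0.57), at 13.01 and 10.8 TPM. Of the module's genes outside the member list, Cdk19 was above the median (0.47) and Ccnc below it (-0.49).

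Among the genes that act on the paused polymerase, the 5 member genes of P-TEFb and the 7SK particle lay from -0.47 to -0.06. Of the 5, 4 turned to above 0 when the centre was taken from genes in the members' expression range. Mepce (-0.94) and Hexim2 (0.10), of the same particle but outside the member list, lay beyond this range on either side. The cyclin Ccnt1 was at 225 and 387 TPM (-0.47), its kinase Cdk9 at 28.3 and 36.5 TPM (-0.06), Hexim1 at 38.4 and 50.5 TPM (-0.09) and Larp7 at 362 and 484 TPM (-0.12). Of the NELF subunits, Nelfa was below the median, at 106 and 167 TPM (-0.35). The other 3 were above it, with Nelfe at 64.0 and 55.2 TPM (0.52), Nelfb at 0.23 and Nelfcd at 0.15. Of these Nelfb and Nelfcd turned to below 0 without centring, and Nelfb also did with coding transcripts summed (-0.22). Supt5, the large DSIF subunit, was at 68.0 and 135 TPM (-0.69). Supt6, a histone chaperone of the moving polymerase, was at 152 and 391 TPM (-1.06). Supt16, a subunit of the chaperone FACT, was at 329 and 905 TPM (-1.16). It had the highest mean exon value of the transcripts that stand for the members. With coding transcripts summed, other members such as Tbp were higher.

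Of the super elongation complex, Ell3 (1.39) and Ell (0.22) were above the median, though Ell turned to below 0 without centring, and Aff1 (-0.83) was below it. Ell2 was at 64.1 and 113 TPM (-0.51) and the scaffold Aff4 at 279 and 683 TPM (-0.99). The transcript that stands for Aff4 has exons of only 476 bases, and against genes of that length it was at -1.45. The sum of the coding transcripts of Aff4 gave -1.22. The kinases that act later in elongation were all 3 below the median. Cdk12 was at 340 and 687 TPM (-0.71), Cdk13 at 65.1 and 129 TPM (-0.68) and their cyclin Ccnk at 125 and 336 TPM (-1.12).

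Paralogs were set side by side because they do the same task with separate genes. Some pairs had like ratios by the transcripts used, as Cdk12 and Cdk13 above, Aff1 (-0.83) and Aff4 (-0.99), and Ccnt2 (-0.24) and Ccnt1 (-0.47). With coding transcripts summed, Aff1 was at -0.86 and Aff4 lower, at -1.22. Taf4b, at 34.8 and 49.2 TPM (-0.19), lay above Taf4 at 43.0 and 144 TPM (-1.44). Med12l lay above Med12, and Med13l (-0.92) above Med13 (-1.42), though the other coding transcript of Med13l was at -1.32. Taf9b was at 0.68 and Taf9 at 0.26, with Taf9 the more abundant (233 and 241 TPM against 36.1 and 27.8 TPM). Taf7 (-0.79) and Taf7l (-0.97) again had like ratios, with levels of 92.1 and 197 TPM for Taf7 and 9.18 and 22.2 TPM for Taf7l. Taf5l and Taf6l, which replace Taf5 and Taf6 in the SAGA complex, were at -0.43 and -1.70, against -0.02 and -0.23. Ell3 was at 1.39 (14.9 and 7.03 TPM), above Ell at 0.22 (21.8 and 23.1 TPM) and Ell2. No pair has a replicate, so none of these differences could be tested.

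Transcripts of the same gene share sequence, and their reads were divided by RSEM. In 55 member genes at least 2 coding transcripts had a mean of 10 TPM or more, and in 42 of these all such transcripts lay on the same side of the all-gene median. The median span within a gene was 0.40 on the centred log2 scale, and 11 genes spanned more than 1. Med18 spanned the most. Cdk8 followed, with 4 transcripts from -2.77 to -0.68, and then Supt20, Cdk9 and Taf1a.

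To see how much unspliced RNA of these genes was present, the intron value was divided by the exon value of the transcript in each library. In labeled RNA the median ratio was 0.273 over the 100 members with all values (quartiles 0.154 and 0.493), against 0.471 over 12411 coding genes and 0.358 in coding genes of the members' expression range. In unlabeled RNA it was 0.0486 (quartiles 0.0279 and 0.110), against 0.0918 and 0.0579. The ratio was higher in labeled RNA in all but 4 of the 100 members. Across members, the labeled ratio moved with the length of the longest intron (Spearman's rho 0.44, against 0.32 over all genes), and the unlabeled ratio moved against the mean exon value (-0.43 against -0.65). The ratios share their exon values with that mean.

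The polymerase subunits had low labeled ratios, with a median of 0.0938 over the 9 of Polr2c to Polr2l that had all values. Polr2h, Polr2e and Polr2j, at 0.0381, 0.0443 and 0.0594, were among the 5 lowest of the 100 members. Polr2h had an intron value of 7.42 TPM in labeled and 5.79 TPM in unlabeled RNA, so its unlabeled ratio (0.104) exceeded its labeled one. The same held for Polr2e, Polr2l and Med29. With Polr2h these were 4 of 100 members, all with a labeled ratio under 1. Of all genes, 6.03% had a labeled ratio under 1 that was not above the unlabeled one. Polr2a stood apart from the small subunits, with 86.6 TPM of intron beside 148 TPM of exon in labeled RNA, a ratio of 0.587, and 0.0460 in unlabeled RNA. Its other coding transcript, of nearly the same mean exon value (296 against 297 TPM), had ratios of 0.388 and 0.0296. Polr2b, whose introns are longer in total, had a labeled ratio of 0.102.

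The lowest labeled ratio of the 100 members was that of Gtf2f1, 0.0329, with intron values of 5.79 and 1.10 TPM, and its unlabeled ratio of 0.0054 was among the lowest as well. Taf7l had 0.0501 and 0.0018, on an intron value of only 0.46 and 0.04 TPM. Taf1 had an unlabeled ratio of 0.0058. The other 4 members had no full set of values. Hexim1 has a single exon and no intron row, and the unlabeled introns of Gtf2h4, Polr2i and Taf7 were listed at 0, with labeled intron values of 1.35, 0.75 and 7.95 TPM.

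At the other end, Cdk7 had a labeled ratio of 1.28 (51.4 TPM of intron, 40.2 TPM of exon) and Med26 of 1.17 (30.1 and 25.7 TPM), followed by Taf15 at 0.956, Med15 at 0.871 and Supt3, a SAGA subunit, at 0.806. A ratio of 1 or more cannot arise in the kinetic model below, and 5 of 100 members had one, against 22.4% of all genes and 214 of 3767 genes in the members' expression range. The other 3 were Taf1c (24.3), Taf6l (1.82) and Med22 (1.31), the members with a mean exon value under 10 TPM. Taf1c and Med22 were singled out after their values were seen. In unlabeled RNA Taf1c had a ratio of 8.91. Among members with a mean exon value of at least 10 TPM the highest were those of Gtf2h5 (0.400), Cdk7 (0.393), Taf15 (0.386), Med21 (0.311) and Gtf2h1 (0.310), all but Med21 outside Mediator and 3 of them in TFIIH.

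**Figure D4:**
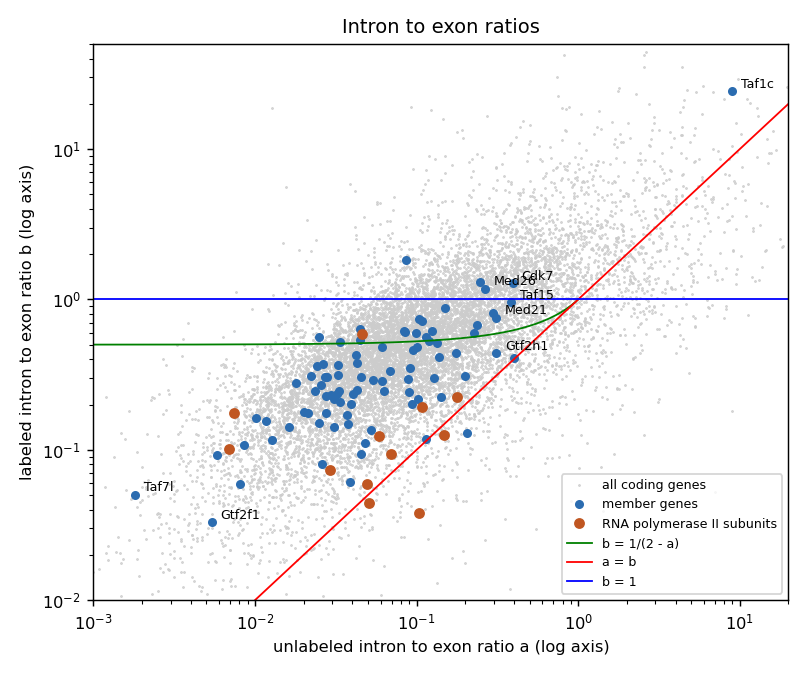
Labeled against unlabeled intron to exon ratio (both log axes) of member genes, polymerase subunits and all coding genes within the axis limits. Blue, red and green lines mark b = 1, a = b and b = 1/(2 - a). Polymerase subunits lie low in the cloud except Polr2a at 0.587, and Taf1c lies apart at 24.3.

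The introns of some members contain processed pseudogenes, which are copies of a spliced mRNA put back into the genome, so reads of the parent mRNA can align to the intron. This was looked at after the high intron values had been seen. Of the 100 members, 16 had at least 1 such copy inside an intron. Their median unlabeled ratio was 0.0925, against 0.0451 in the other 84, and their median labeled ratio was 0.477 against 0.244. Their introns were also longer, with medians of 33950 and 11770 bases. Over all coding genes the same medians were 0.132 in 915 genes with and 0.0894 in 11496 genes without a copy in unlabeled RNA, and 0.679 and 0.457 in labeled RNA. The part of the copies in the ratios was not tested.

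Taf1c had the most extreme values. Its exons stood at 9.12 TPM in labeled and 6.88 TPM in unlabeled RNA and its introns at 221 and 61.3 TPM. Within its introns, on the same strand, lies Rps13-ps4 (chr8:119602170-119602625, GRCm38), which matches the mRNA of the ribosomal protein gene Rps13 at 99.3% of 456 aligned bases. The row of Rps13-ps4 itself was at 2019 TPM in labeled and 499 TPM in unlabeled RNA, and that of Rps13 at 1971 and 464 TPM. Med21 holds Gm6654 (chr6:146647241-146647588, opposite strand), which matches Rps26 at 97.4% of 348 bases, and had intron values of 209 and 75.0 TPM. Gtf2h1 holds Gm9392 (chr7:46820864-46821417, opposite strand), which matches the small GTPase gene Rap1a at 98.6% of 554 bases. Rap1a had the higher value in unlabeled RNA (357 and 1451 TPM), as did Gm9392 (105 and 193 TPM), and the introns of Gtf2h1 had nearly the same value in both pools, 54.3 and 47.8 TPM.

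These 3 copies were chosen for a high identity to the coding mRNA and a high labeled value of their own row. Other copies had little signal, as Rpl26-ps4 in Med15, at 3.98 and 3.94 TPM. A stretch of 60 bases of each of the 3 is printed above the same stretch of the coding mRNA. It is read on the strand of the copy from the GENCODE transcripts (GRCm38). The stretch with the most differing bases within the coding sequence was taken, so it is less alike than the whole alignment. Capitals mark the bases that differ. The stretches of the copies lie at chr8:119602484-119602543, chr6:146647291-146647350 and chr7:46821286-46821345, all on the minus strand.
Rps13-ps4 in Taf1c: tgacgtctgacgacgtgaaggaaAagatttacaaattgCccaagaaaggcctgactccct
Rps13: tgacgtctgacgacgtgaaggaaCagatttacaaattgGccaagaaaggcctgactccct
Gm6654 in Med21: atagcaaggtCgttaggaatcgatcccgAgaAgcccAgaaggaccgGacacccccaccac
Rps26: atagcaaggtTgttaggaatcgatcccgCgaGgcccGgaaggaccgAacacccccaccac
Gm9392 in Gtf2h1: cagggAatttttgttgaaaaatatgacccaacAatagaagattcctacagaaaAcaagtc
Rap1a: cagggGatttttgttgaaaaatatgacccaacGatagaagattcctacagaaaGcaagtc
Over the whole alignments the copies differed from the mRNA at 3 of 456 bases for Rps13-ps4, 9 of 348 for Gm6654 and 8 of 554 for Gm9392.

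**Figure D5:**
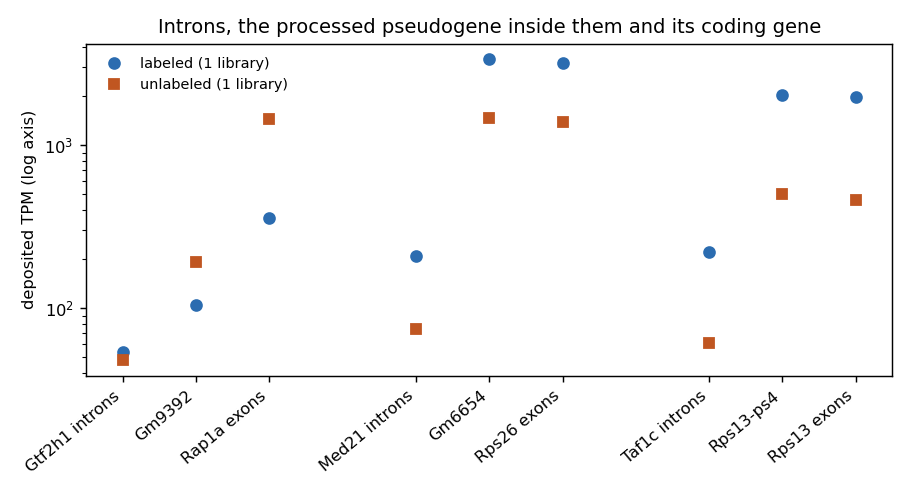
Values in the labeled and the unlabeled library (vertical axis, deposited TPM, log scale; 1 library each) of the introns of Gtf2h1, Med21 and Taf1c, of the processed pseudogene inside them and of the exons of its coding gene. The intron value is the higher one in labeled RNA in each case, and Rps13-ps4 and Gm6654 have nearly the values of their coding genes.

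Other genes also lie within the members. The introns of Larp7 hold the miRNA genes Mir302a, Mir302b, Mir302c, Mir302d and Mir367 on the opposite strand, a cluster known for its expression in stem cells. Their rows, which cover very short sequences, were listed at 0, and this was not read as a lack of expression. The introns of Larp7 themselves were at 21.5 and 3.89 TPM. In all, 28 members partly overlap a gene on the opposite strand, among them Polr2b, Polr2c, Polr2h and Polr2j. The sources used here do not say whether alignment kept strand, so reads of such neighbors may not have been told apart.

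The study's model turns the unlabeled ratio a and the labeled ratio b of a transcript into a processing rate, at which introns are removed, and a degradation rate of the spliced RNA. It can account for a gene only where b is under 1 and above a. This held for 91 of the 100 members, against 71.6% of all coding genes and 91.2% of those in the members' expression range. The solution is unique only above the line b = 1/(2 - a), where 18 members lay, against 20.3% of all coding genes. Their median degradation half-life was 23.4 min and their median processing half-life 5.88 min, against 33.0 min and 8.44 min over 2523 coding genes. With an assumed leakage of unlabeled RNA into the labeled pool subtracted, 22 members had a unique solution. Their medians were 46.6 and 8.53 min, against 49.2 and 8.995 min over 2785 coding genes. The 18 are by this criterion members with much intron in labeled RNA, and they do not stand for the rest.

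Among them Cdk9 had the shortest degradation half-life, 4.72 min, followed by Ccnt2 at 8.98 min, both of P-TEFb, and Taf8 at 9.16 min. Polr2a was at 35.5 min with a processing half-life of 5.53 min. Med13 and Med13l, paralogs of the Mediator kinase module, lay close together, at 58.1 and 56.6 min, with processing half-lives of 5.26 and 6.89 min. The other coding transcript of Med13l had a labeled ratio of 0.837, against 0.641 in the one used. Taf15 had the longest, 108 min for degradation and 74.2 min for processing, and Med15 was at 103 and 23.9 min. Nelfa was at 39.8 and 9.52 min. All these values hold for the transcript that stands for the gene, and other coding transcripts can differ. The next most abundant transcript of Cdk9 (labeled ratio 0.511, unlabeled ratio 0.218) lay below the line. So did the other transcript of Polr2a (0.388 and 0.0296). That of Taf15 (1.23 and 0.772) was outside the model. Those of Ccnt2, Med13l and Med15 lay above the line. Each half-life rests on 4 values of 1 pair of libraries and carries no error, and the introns of Med15, Med21, Supt3 and Taf4b, which are among the 18, contain processed pseudogenes. Without these 4 the medians were 25.2 and 5.53 min.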

How the data were processed

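In wild-type stem cells, 4sU-labeled and unlabeled RNA were measured, with 1 library per pool. The authors removed reads of ribosomal RNA, aligned the rest to exonic and intronic sequences (mm10/GRCm38, Ensembl annotation) with STAR 2.5.0 and quantified them with RSEM. The deposited signal is a relative abundance per transcript, called TPM, and adds up to 10 times what TPM would. It keeps no counts, so depth and counting error are unknown, and without replicates nothing was tested.

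Biotypes, lengths and coordinates came from GENCODE M21 (GRCm38), which held 90.9% of the transcripts, and promoters from RefSeq (GRCm38.p6). No genome sequence or protein sequences were used. A gene was represented by its coding transcript with the highest mean exon value, with a minimum of 1. Log2 ratios were centred on all coding genes, and a call was a fold of 2. Rates were computed with the study's equations, with roots sought on 3998 grid points and half-lives for a labeling time of 10 min. The solver and the calls were tested on simulated data. Members, roles, lists and alternatives were chosen with earlier results of these data known. Genes were named by role, as paralogs, as the 5 highest and 5 lowest in each measure among those with a mean exon value of at least 10, or for a missing value or a 0. Members outside that rule are named only to complete a group or a count. The copies in introns and the centring by length were added after values had been seen. Scripts ran in Python 3.11.15 with pandas 2.3.3, numpy 2.4.6, matplotlib 3.10.9 and scipy 1.17.1.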

Additional observations from a re-analysis of the deposited data

How the results depend on the processing

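No paired analysis was possible because each pool has 1 library, which leaves nothing to pair. A median was taken as unmoved where it stayed within its 95% order-statistic interval over genes, and a count where it stayed within 1.5 times. Of the values recomputed under the alternatives, 63 did not move and 20 did. With a mean exon value above 10, 8 members were at least 2-fold below and 2 had a labeled ratio of 1 or more. With every coding transcript in place of 1 per gene, 42 transcripts were at least 2-fold above, 49 at least 2-fold below and 23 had a labeled ratio of 1 or more, the median labeled ratio was 0.35, and 215 were compatible with the model. This set has more units by construction. An assumed leakage of unlabeled RNA into the labeled pool was also subtracted, at 0.144 times the unlabeled value. This factor was set from the lowest labeled to unlabeled exon ratios of coding genes and was not measured. With it, 25 members were at least 2-fold below, the median labeled ratio was 0.318 and 10 members had one of 1 or more. The median degradation half-life was then 46.6 min, within its interval but 2 times the main value. Without centring the median log2 ratio was -0.283, with 13 members at least 2-fold above, 27 at least 2-fold below and 4 of Polr2c to Polr2l at least 2-fold above. Centred on genes in the members' expression range, the median was 0.279 and 9 members were at least 2-fold below. Centred by length decile, 15 members and 4 of Polr2c to Polr2l were at least 2-fold above. For the alternatives in this section the shares of all coding genes past 2-fold are not given, so these counts have no comparison. With the minimum of the distance used below the line, the median processing half-life was 3.48 min. Without genes that hold a processed pseudogene, 2 members had a labeled ratio of 1 or more. Depth is unknown, so low values such as the introns of Taf7l cannot be given an error. For the filters and the leakage, the cause was not tested.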

Other observations

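Genes of the transcription machinery outside the member list were read with the same measures. Among 37 further genes of polymerase II transcription, the median centred log2 ratio was -0.32, and the median labeled intron to exon ratio was 0.280. At least 2-fold above were 6 (16.2%, against 22.1% of all coding genes), and 7 were at least 2-fold below (18.9% against 15.4%). Those at least 2-fold above included Supt4a, the small DSIF subunit, at 236 TPM in labeled and 106 TPM in unlabeled RNA (1.45), and the elongin subunits Elob (1.07) and Eloc (1.10). Those at least 2-fold below included the elongation factor Tcea1 at 543 and 1545 TPM (-1.20), the PAF complex subunits Ctr9 (-1.23) and Cdc73 (-1.06) and the termination exonuclease Xrn2 (-1.06). These genes were picked after their values were seen.

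The 15 genes named as subunits of polymerases I and III had a median of -0.05. Of them 4 were at least 2-fold above (26.7%, against 22.1% of all coding genes) and 1 at least 2-fold below (6.67% against 15.4%). Polr1a and Polr1b, the large subunits of polymerase I, were at -1.04 and -0.90, at 41.5 and 105 TPM and at 34.98 and 80.5 TPM. Polr1c and Polr1d, which polymerases I and III share, were at 1.31 and 1.66, at 169 and 84.1 TPM and at 169 and 66.2 TPM. Polr3a and Polr3b, the large subunits of polymerase III, were at -0.47 and -0.16.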
